A study of Mus musculus with 4 samples.

Results

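The maternal genome of zygotes that lacked maternal EZH2 held a cluster of H3K27me2 peaks on mouse chromosome 14, around Slc39a14, Rhobtb2, Pebp4, Egr3, Bin3, Sorbs3 and Pdlim2. The cluster was taken as every deposited peak that the authors' annotation gives to 1 of these 7 genes, together with every peak between 69500 and 70700 kb of chromosome 14 (mm10). This gave 87 of the 56036 peaks in the 4 lists, and no peak assigned to a listed gene lay outside these 1.2 Mb. The maternal list of Ezh2m-/p+ zygotes contributed 52 of its 9606 peaks and the maternal list of Ezh2m+/p+ zygotes 3 of its 5744. The paternal lists contributed 18 of 17863 peaks in Ezh2m+/p+ and 14 of 22823 in Ezh2m-/p+. The members were chosen by the fold and length of Ezh2m-/p+ maternal peaks, since the strongest and the longest of that list lie here, so the values of that list are given as a description, and the comparisons with it cannot count as independent evidence.

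H3K27me2 is the dimethylated form of lysine 27 of histone H3. Polycomb repressive complex 2, whose catalytic subunit is EZH2 or its relative EZH1, places methyl groups on this residue, and in most cells the dimethylated form covers broad stretches of chromatin outside active genes. In the zygote the genomes of egg and sperm still lie in separate pronuclei, and the maternal one carries histones and marks from the oocyte, whereas the paternal one has exchanged protamines for histones after fertilization.

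ULI-NChIP-seq, which sequences the DNA of antibody-bound nucleosomes from very few cells, was applied to PN5 zygotes (pronuclear stage 5) without polar bodies. In all zygotes the egg was C57BL/6J and the sperm, added in vitro, PWK/PhJ, so that sequence variants separate maternal from paternal reads. Mothers of Ezh2m+/p+ zygotes were Ezh2 fl/fl, and those of Ezh2m-/p+ zygotes were Ezh2 fl/fl; Gdf9-Cre, in which the oocyte promoter of Gdf9 drives the recombinase. Floxed alleles were thus shared by both groups of mothers, and the sperm brought an intact Ezh2 allele in both. The mothers were at least 6 weeks old. Each genotype had 1 H3K27me2 library and 1 input library of 300 zygotes, so no value has a replicate and no test between genotypes was possible. The fold of a peak is the value over input from the authors' peak caller. Many folds are whole multiples of a single value, as described below. The fold therefore need not be a ratio to the input reads of the peak itself. Strong and weak refer to this fold. The limits the authors set were 1000 bp and a fold of 5, the shortest listed peak being 999 bp. By the read totals in the methods, the Ezh2m+/p+ libraries were the deeper ones, for H3K27me2 as for input, and the part of depth in the differences between genotypes was not tested. Read counts per peak are not part of the lists. A stretch without a listed peak may hold signal under these thresholds, or no variant by which reads could be assigned to a parent. The lists do not show the deleted exon, and the direction between genotypes rests on the labels.

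In the Ezh2m+/p+ maternal genome the interval was close to ordinary. Its 3 peaks were 0.0522% of the list (95% Wilson interval 0.0178 to 0.153%), covered 10.2 kb and took up 0.850% of the interval, beside 0.688% of chromosomes 1 to 19 and X. In the Ezh2m-/p+ maternal genome the 52 peaks were 0.541% of the list (0.413 to 0.709%) and covered 229 kb. They took up 19.1% of the interval beside 1.35% of chromosome 14 and 0.913% of the genome, a ratio of 20.9 to the genome. The Wilson intervals cover the counting of peaks within 1 list and no variation between zygotes or libraries. In the paternal genome the peaks covered 63.0 kb (5.25%) in Ezh2m+/p+ and 58.4 kb (4.87%) in Ezh2m-/p+, beside 1.62% and 2.54% of the genome. The paternal covered lengths of these libraries thus differed far less between genotypes than the maternal ones.

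Other windows of the same length put these numbers in place. Of 2184 windows of 1.2 Mb that tile the genome, 37.3% held at least as many Ezh2m+/p+ maternal peaks as the interval, and the median window held 1. For Ezh2m-/p+ maternal peaks the share was 0.0458%, or 1 window, which overlaps the interval and holds the same 52 peaks. Peaks of this list chose the interval, so its high rank there is a description only. The median window of that list held 3 peaks. Away from the interval the fullest window held 51 Ezh2m-/p+ maternal peaks, so the number of peaks was nearly matched elsewhere, but the highest covered share there was 12.5%. For the paternal lists, 11.5% of windows held at least 18 Ezh2m+/p+ peaks and 24.1% held at least 14 Ezh2m-/p+ peaks. The paternal counts were within the ordinary range of their lists.

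**Figure D1:**
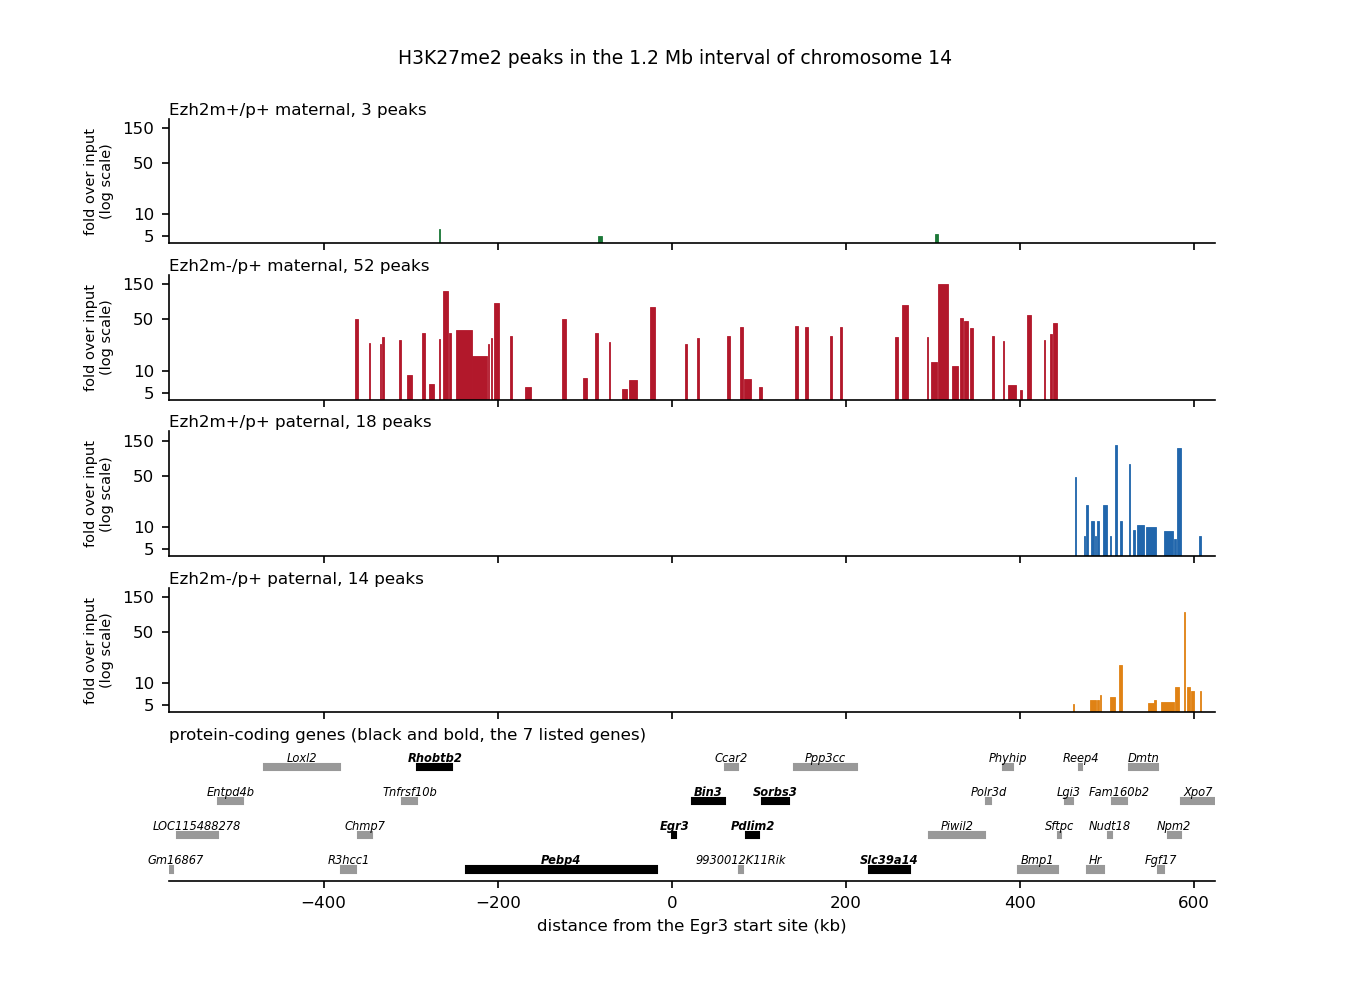
Peaks of the 4 lists in the interval, drawn to scale along the distance from the Egr3 start site in kb, with bar height for the fold over input on a log axis that starts at 4, and the protein-coding genes below. The 52 Ezh2m-/p+ maternal peaks fill the left and the middle up to Bmp1, the 3 Ezh2m+/p+ maternal peaks have folds from 5.11 to 6.20, and the paternal peaks begin to the right of Bmp1. Fold heights are not comparable between lists.

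The 3 peaks of the Ezh2m+/p+ maternal genome were weak and far apart. The first, at chr14:69809401-69811199, was 1799 bp long with a fold of 6.20 and lay in Rhobtb2, the gene of a BTB-domain protein that binds the CUL3 ubiquitin ligase. The second, at chr14:69993001-69997199, had a length of 4199 bp and a fold of 5.11. It was assigned to Egr3 but lay in intron 4 of Pebp4, at 80004 bp from the Egr3 start site. The third, at chr14:70379401-70383599, had the same length and a fold of 5.45, and lay in intron 20 of Piwil2 although it was assigned to Slc39a14. None of the 3 covered a promoter, and all had a fold below the median of their list, 7.37.

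Slc39a14 encodes ZIP14, which carries manganese, zinc and iron into cells. It spans chr14:70303467-70351452 on the minus strand. In the Ezh2m-/p+ maternal list 5 peaks were assigned to it, with folds from 13.2 to 152. Of these, 2 overlapped the gene and covered 21.3% of it. The peak at chr14:70341401-70348799 was 7399 bp long with a fold of 77.2, and that at chr14:70333801-70336599 was 2799 bp long with a fold of 29.1. Both were annotated as promoter and together they held 2 of the 7 annotated start sites. The other 3 lay upstream of the gene. A peak of 1399 bp at chr14:70370001-70371399 had a fold of 28.3 and overlapped no protein-coding gene.

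The last pair assigned to Slc39a14 lay in Piwil2, a Piwi-family gene whose protein binds piRNAs in germ cells. The peak at chr14:70375201-70381999 was 6799 bp long with a fold of 13.2. The peak at chr14:70382801-70394199 was 11399 bp long with a fold of 152, the highest of the 9606 in the list and rank 10 by length. The annotation placed it at exon 16 of 23 of Piwil2, 31376 bp upstream of Slc39a14. The gene name that the strongest maternal peak carries is therefore that of the nearest start site and not of the gene under it. Only 801 bp separated these neighbours, and the Ezh2m+/p+ maternal peak with a fold of 5.45 overlapped both, by 2599 and 799 bp.

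Piwil2 itself was assigned 4 further peaks. Their folds were 11.7, 51.2, 46.7 and 37.5, with lengths from 3399 to 7399 bp. With the 2 under the name of Slc39a14, 6 peaks overlapped the gene and covered 58.0% of it, a larger share than in any of the 7 listed genes. None held a Piwil2 start site. In the Ezh2m+/p+ maternal genome its 1 peak was the one in intron 20.

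Rhobtb2 (chr14:69784990-69824847, minus strand) was assigned 5 Ezh2m-/p+ maternal peaks, all inside the gene, which covered 44.6% of it. The peak at chr14:69814801-69820399, 5599 bp long, had a fold of 122, the second highest of the list. In order along the chromosome, the other 4 had folds of 32.1, 6.45, 26.8 and 32.9. That of fold 6.45, at chr14:69798601-69803999, was annotated as promoter, at 0 bp from a start site in the authors' annotation. The strong peak was annotated as distal intergenic, 9165 bp from the nearest start site in the annotation used by the authors, but it falls inside the RefSeq gene. The peak of fold 26.8 at chr14:69810201-69811399 overlapped the Ezh2m+/p+ maternal peak of fold 6.20 by 999 bp.

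Pebp4 encodes a member of the phosphatidylethanolamine-binding proteins and is the longest of the listed genes (chr14:69840407-70059918, plus strand, 219.5 kb). Of the Ezh2m-/p+ maternal peaks, 8 were assigned to it and 14 overlapped it, covering 33.6%. The longest peak of the list lay over its start, at chr14:69829601-69847199, 17599 bp long with a fold of 35.4. Its neighbour at chr14:69848001-69864399, the second longest, was 16399 bp long with a fold of 15.7. The gap between them was 801 bp, and joined they formed a domain of 34.8 kb. The remaining 6 assigned peaks lay in intron 3. Of these, the peak of 5999 bp at chr14:69872801-69878799 had a fold of 82.6 (rank 14), and that of 4399 bp at chr14:69951201-69955599 had a fold of 49.7. The other 4 had folds from 5.93 to 29.8. Of the 5326 genes with an Ezh2m-/p+ maternal peak, 66 had more peaks than Pebp4, and the most for any gene was 24.

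Egr3 encodes a zinc finger transcription factor of the immediate early response. It was assigned 6 Ezh2m-/p+ maternal peaks with folds from 5.55 to 72.7, but none overlapped the gene (chr14:70077317-70082613, plus strand) or either of its 2 start sites. All 6 lay inside Pebp4, at 97804 to 19804 bp upstream of Egr3. The nearest, at chr14:70051801-70057399, was 5599 bp long with a fold of 72.7. The longest, 8599 bp at chr14:70028401-70036999, had a fold of 7.41. On the other side of Egr3 the next peak, at chr14:70092801-70094399, was assigned to Bin3 and lay 5706 bp upstream of it.

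Bin3, Pdlim2 and Sorbs3 encode proteins of membranes and the cytoskeleton. Bin3, which encodes a BAR-domain protein of the amphiphysin group, had 2 peaks with folds of 22.9 and 27.5, of which 1 lay in the gene and covered 5.81% of it. Pdlim2, which encodes a PDZ-LIM protein, had 2 peaks annotated as promoter, with folds of 7.70 over 7999 bp and 5.93 over 3399 bp. They covered 40.2% of the gene and 3 of its 6 start sites. Sorbs3, which encodes the adhesion adaptor vinexin, had 2 peaks with folds of 40.5 and 39.8. Both lay in the neighbouring Ppp3cc, the gene of a catalytic calcineurin subunit, and Sorbs3 itself was under no peak. Of the 7 listed genes, 5 thus had an Ezh2m-/p+ maternal peak over the gene, and Egr3 and Sorbs3 had peaks by assignment alone. By the start sites of protein-coding transcripts in GENCODE vM21, 3 (Pebp4, Pdlim2 and Slc39a14) had a peak over a start site. Rhobtb2 had one over a start site only in the authors' annotation.

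**Figure D2:**
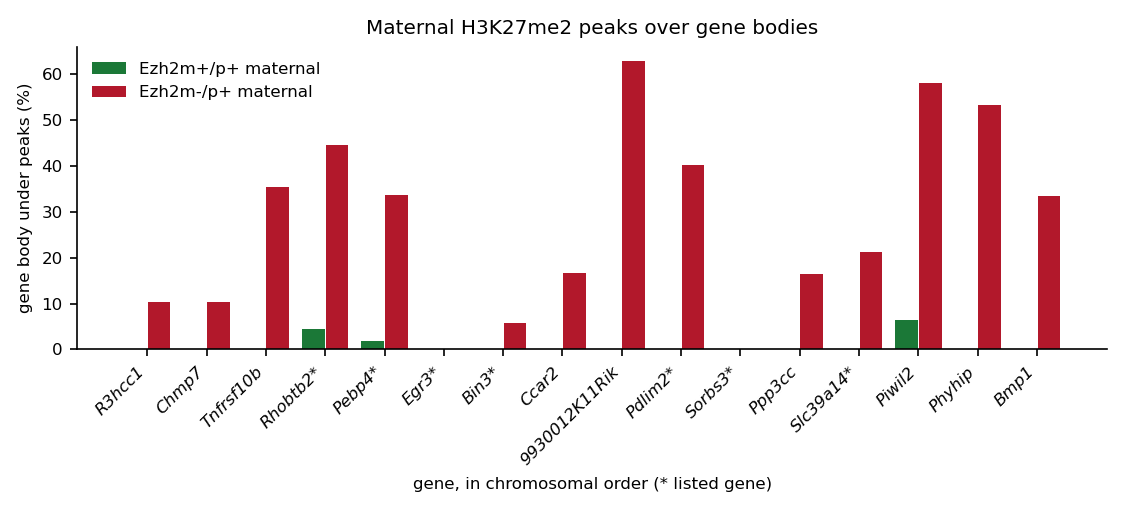
Percent of each RefSeq gene body under maternal peaks, for genes in chromosomal order, with 1 bar per genotype and an asterisk at the listed genes. Ezh2m-/p+ values run from 0 for Egr3 and Sorbs3 to 62.8% for 9930012K11Rik, and Ezh2m+/p+ values are above 0 in Rhobtb2, Pebp4 and Piwil2.

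The other 22 Ezh2m-/p+ maternal peaks were assigned to 10 genes, Piwil2 among them. On the left side Chmp7, a component of the ESCRT-III membrane remodelling machinery, had 2 peaks (folds 49.7 and 23.7), the long noncoding 4930480K23Rik had 2 (22.9 and 29.1), and Tnfrsf10b, the mouse TRAIL death receptor, had 2 (26.0 and 8.80). In the middle Ccar2 had 1 peak (29.8), 9930012K11Rik had 1 (39.0) and Ppp3cc had 2 (29.8 and 39.8). On the right Mir320 had 1 peak (29.8), Phyhip had 2 (25.2 and 6.31) and Bmp1, the gene of the procollagen C-proteinase, had 5 with folds from 5.45 to 57.4. Of the 31 protein-coding genes that touch the interval, 15 were assigned an Ezh2m-/p+ maternal peak, beside 20.8% of all protein-coding genes, and 3 an Ezh2m+/p+ maternal peak, beside 14.4%. By position, 14 were overlapped by an Ezh2m-/p+ maternal peak, beside 3 in the Ezh2m+/p+ maternal genome. A GENCODE vM21 start site of a protein-coding transcript lay under a peak in 4, beside 0. In the authors' annotation, Ezh2m-/p+ maternal peaks over a start site were also given to Tnfrsf10b, Rhobtb2, Ccar2, 9930012K11Rik and Bmp1. The 17 without a peak were Gm16867, LOC115488278, Entpd4b and Loxl2 on the left, Egr3, Sorbs3 and Polr3d within the cluster, and Sftpc, Lgi3, Reep4, Hr, Nudt18, Fam160b2, Dmtn, Fgf17, Npm2 and Xpo7 on the right.

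The fold of an Ezh2m-/p+ maternal peak was mostly a whole multiple of 0.765, here called a step (tolerance 0.001 step). This held for 38 of the 52 peaks (73.1%) and for 77.8% of the whole list. The strongest peak was 199 steps, the second 159 steps. Folds of the 38 ran from 22.9 to 152 and grew with length, so that the fold per kb stayed between 10.0 and 22.3 (median 12.7, list median 13.8). The 14 peaks off the steps had folds from 5.45 to 35.4, a median length of 6899 bp and 0.751 to 2.48 fold per kb. Both longest peaks, in Pebp4, were in this second set. The steps of the other lists were 1.34 (Ezh2m+/p+ maternal), 6.02 (Ezh2m+/p+ paternal) and 7.88 (Ezh2m-/p+ paternal), and for that reason no fold was compared between lists as a level. What sets a step was not tested.

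Measured within its own list, the median fold of the interval was not high. It was 29.1 for the 52 Ezh2m-/p+ maternal peaks (range 5.45 to 152) and 23.7 for the list. The 3 Ezh2m+/p+ maternal peaks had a median of 5.45. The 52 peaks were long, which is also how the interval was chosen. Their median length was 3299 bp beside 2199 bp for the list, and 15 of 52 (28.8%) were over 5000 bp beside 4.22% of the list. Of the 100 peaks of highest fold 5 lay here, and of the 100 longest 9. In the other 3 lists, 0 of the 100 strongest and 0 of the 100 longest peaks lay in the interval.

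**Figure D3:**
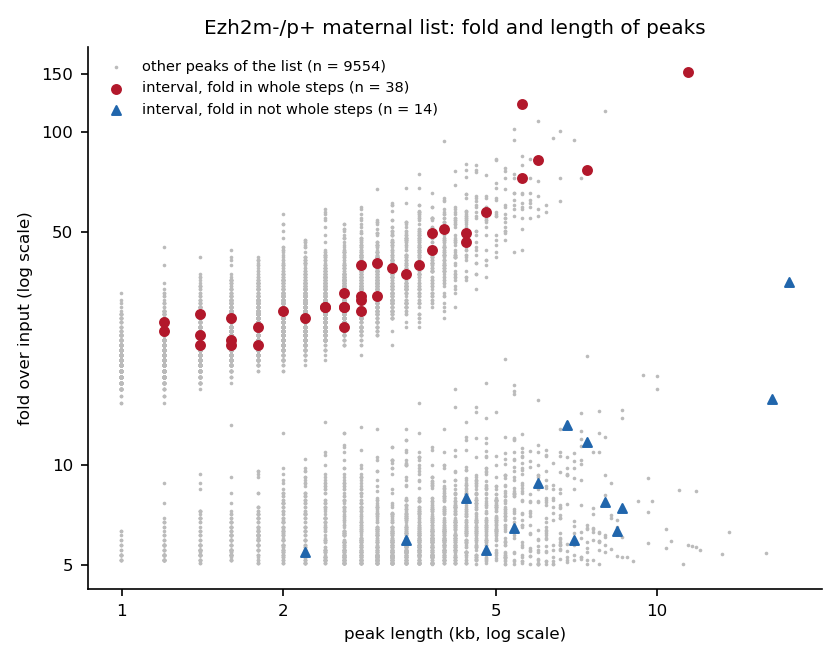
Fold over input against length, both on log axes, for all peaks of the Ezh2m-/p+ maternal list, with the interval's 38 peaks in whole steps as circles and its 14 other peaks as triangles. The circles rise with length up to the peak of fold 152, and the triangles lie below them, with the 2 longest peaks of the list at the right edge.

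Overlap between the genotypes was counted in each parental genome. In the maternal genome 2 of 3 Ezh2m+/p+ peaks overlapped an Ezh2m-/p+ peak (66.7%, 95% Wilson interval 20.8 to 93.9%), beside 9.47% over the whole list. In the other direction 3 of 52 Ezh2m-/p+ peaks overlapped an Ezh2m+/p+ peak (5.77%, 1.98 to 15.6%), beside 5.78% over the list. Shared sequence came to 4397 bp, 43.1% of the length covered in Ezh2m+/p+ and 1.92% of that in Ezh2m-/p+. The share of the 52 peaks with a counterpart was thus that of their whole list, and 49 of them had no listed counterpart. In the paternal genome 11 of 18 Ezh2m+/p+ peaks (61.1%, 38.6 to 79.7%) overlapped an Ezh2m-/p+ peak beside 66.1% of the list, and 9 of 14 the other way (64.3%, 38.8 to 83.7%) beside 45.7%. With a reciprocal overlap of 50% the paternal shares were 27.8% and 35.7%, and with a fold over 10 the first was 9.09%. The paternal lists shared 32988 bp, 52.4% and 56.5% of their covered lengths. No peak of the interval overlapped a peak of the other parental genome of the same genotype, and over the whole lists such overlap was also rare, with 0.418% and 0.416% of maternal and 0.140% and 0.180% of paternal peaks in Ezh2m+/p+ and Ezh2m-/p+.

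Maternal and paternal peaks of the interval followed each other along the chromosome without intermixing. The 52 Ezh2m-/p+ maternal peaks ran from chr14:69713001 to chr14:70519399, or 806 kb of which 28.4% was covered, with a median gap of 7.80 kb and gaps from 801 bp to 61.0 kb. The last of them lay in Bmp1. The first paternal peak of either genotype began at chr14:70537801 in Lgi3, 18.4 kb further on. The paternal peaks then ran for 145 kb in Ezh2m+/p+ and 147 kb in Ezh2m-/p+, with 43.6% and 39.7% covered. In the 2.15 Mb to the left of chr14:70537801 neither paternal list had a peak, whereas the maternal lists had 5 (Ezh2m+/p+) and 69 (Ezh2m-/p+). In the 1.92 Mb to the right of chr14:70519399 neither maternal list had a peak, whereas the paternal lists had 70 (Ezh2m+/p+) and 63 (Ezh2m-/p+).

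**Figure D4:**
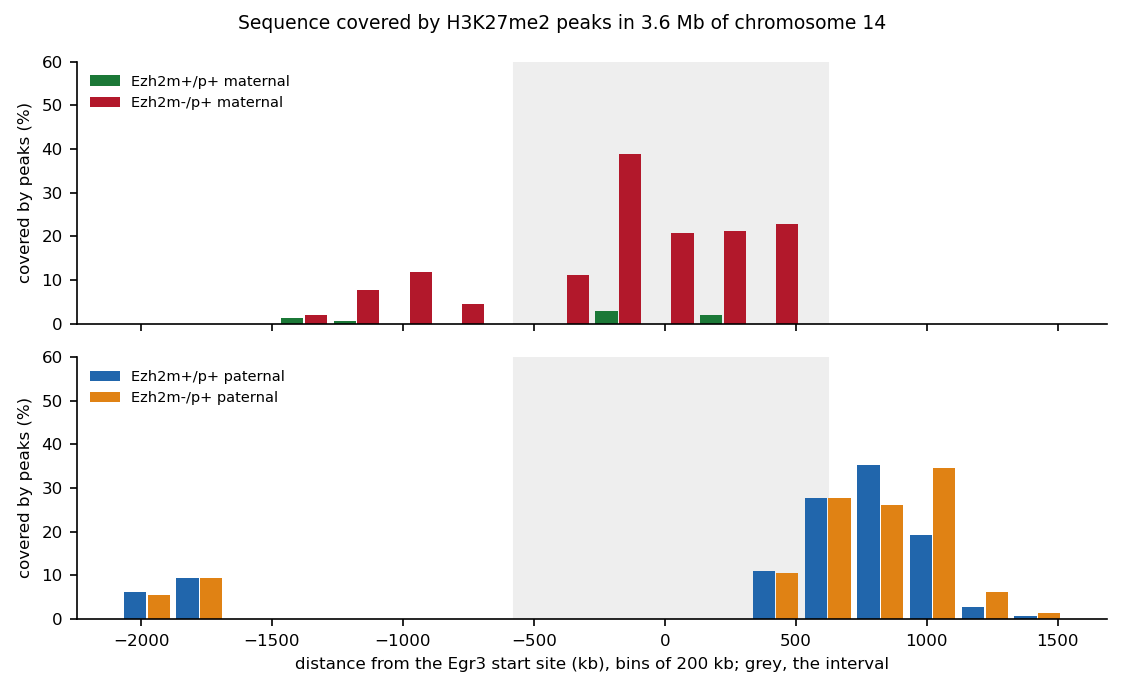
Percent of sequence under peaks in bins of 200 kb along 3.6 Mb of chromosome 14, as distance from the Egr3 start site in kb, with the interval in grey, maternal lists above and paternal lists below. The Ezh2m-/p+ maternal share peaks at 38.8% in the bin over Pebp4, and maternal and paternal bars share a single bin, the one that holds Bmp1 and Hr.

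The cluster had a softer edge on the left. Left of the interval the next Ezh2m-/p+ maternal peak lay 246 kb from the border. It had a fold of 28.3 and was assigned to Slc25a37, the gene of the mitochondrial iron importer mitoferrin. Bins further left held up to 11.8% covered sequence. For the Ezh2m+/p+ maternal list the nearest peak on that side was 615 kb from the border, at Stc1. On the right the nearest maternal peaks, both assigned to Fndc3a, were 1741 kb (Ezh2m-/p+) and 2132 kb (Ezh2m+/p+) from the border, while paternal peaks went on in Xpo7 17.2 and 35.6 kb from it.

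The paternal peaks at the right end lay from Lgi3 to Xpo7 and were assigned to Reep4, Hr, Nudt18, Fam160b2, Dmtn, Fgf17, Npm2 and Xpo7, none of them a listed gene. In Ezh2m+/p+ the highest fold was 132, at chr14:70586201-70588199 in Fam160b2, though assigned to Nudt18, a Nudix hydrolase gene. The next, 120 over 4199 bp at chr14:70657801-70661999, covered the start of Npm2, the gene of an oocyte histone chaperone. In Ezh2m-/p+ the strongest was a peak of 1399 bp with a fold of 94.6 at chr14:70665801-70667199, in Xpo7, and no Ezh2m+/p+ peak overlapped it.

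Several paternal peaks matched between genotypes in place. At Hr, the gene of a nuclear receptor corepressor, 1 Ezh2m-/p+ peak of 7399 bp took in 2 Ezh2m+/p+ peaks of 2999 and 1399 bp. At Dmtn, the gene of the actin-bundling protein dematin, the reverse was seen, with an Ezh2m+/p+ peak of 11799 bp over Ezh2m-/p+ peaks of 6399 and 1799 bp. The longest Ezh2m-/p+ paternal peak of the interval, 14799 bp at chr14:70639001-70653799, reached from Fgf17 into Npm2 and contained 10599 bp of an Ezh2m+/p+ peak. At Xpo7 the pair shared 1399 bp and ended at the same base, chr14:70684999. The median paternal folds of the interval, 11.3 and 6.68, were below those of their lists, 36.1 and 15.8. Whole-step folds made up 38.9% and 21.4% of the paternal peaks here beside 69.9% and 49.5% of the lists. The median whole-step fold of Ezh2m+/p+ was 48.1 both here and over the list. For Ezh2m-/p+ it was 7.88 here, from 3 peaks, and 63.0 over the list.

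Few peaks of the interval lay far from genes. Of the 52 Ezh2m-/p+ maternal peaks 17 (32.7%, 21.5 to 46.2%) were annotated as promoter, within 3 kb of a start site, beside 16.5% of the list. Only 4 (7.69%, 3.03 to 18.2%) were distal intergenic, beside 35.8% of the list. Those assigned to Rhobtb2 lay inside its RefSeq gene body, and only that assigned to Bin3 overlapped no protein-coding gene. Introns held 16, exons 10, 3' UTRs 3 and downstream sequence 2. Promoters also held 11 of 18 Ezh2m+/p+ and 7 of 14 Ezh2m-/p+ paternal peaks, beside 17.3% and 16.9% of those lists. Maternal and paternal peaks lay over different genes of the interval, and the part of gene content in these shares was not tested.

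The sequence under the peaks was close to that of the interval as a whole. The 52 Ezh2m-/p+ maternal peaks had a median G+C content of 48.7% and 11.6 CpG per kb in the mm10 reference, and the list medians were 45.6% and 9.29. The whole interval had 47.7% and 12.9 CpG per kb, above chromosome 14 with 41.2% and 7.75. The strongest peak, in Piwil2, had 43.4% G+C and 7.98 CpG per kb, and the longest, at Pebp4, 46.3% and 10.5. The most CpG-rich peak of the interval was paternal, at the Hr promoter in Ezh2m+/p+, with 52.1 CpG per kb. Repeats took up a median of 19.2% of the Ezh2m-/p+ maternal peaks and 24.3% of the interval.

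Relatives of the 7 genes elsewhere in the genome were counted in the same way. They comprised 30 other members of the SLC39, RhoBTB, PEBP, EGR, amphiphysin, SORBS and PDZ-LIM families. An Ezh2m-/p+ maternal peak was assigned to 10 of these 30 (33.3%) beside 20.8% of all protein-coding genes, and an Ezh2m+/p+ maternal peak to 6 (20.0%) beside 14.4%. In the paternal lists it was 8 (26.7%) beside 20.0% in Ezh2m+/p+ and 7 (23.3%) beside 23.5% in Ezh2m-/p+. Among the relatives with an Ezh2m-/p+ maternal peak, Egr2 had 3 peaks, Amph and Bin1 had 2 each, and Egr1, Rhobtb1, Slc39a8, Slc39a10, Slc39a11 and Slc39a12 had 1 each. Pebp1 and the PDZ-LIM relatives of Pdlim2 had none there.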

How the data were processed

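H3K27me2 ULI-NChIP-seq libraries of PN5 zygotes were sequenced as paired reads of 150 bp. The authors used Trimmomatic 0.38 for trimming and Bowtie2 for alignment to mm10, kept mapping qualities over 30, removed duplicates with Picard and split reads by parent with SNPsplit, which places only reads over a strain variant. Peaks were called per library and parental genome with SICER (window 200 bp, gap 600 bp, FDR 1e-05), kept over 1000 bp and fold 5, and annotated with ChIPseeker. The deposited fold is the value over input from the authors' peak caller, and how input enters it for each peak was not worked out. A deposited table of read coverage per chromosome was not used here, and the lists hold no read numbers per parental genome.

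Peaks were taken as listed. All 56036 lay inside the GRCm38 (mm10) chromosomes, and 41 of 41 transcripts named in the interval had the same ends in GENCODE vM21. All 87 peaks matched a symbol. Gene bodies and composition came from RefSeq on GRCm38.p6. Start sites counted under peaks were those of protein-coding transcripts in GENCODE vM21. Overlap meant at least 1 bp, and intervals are 95% Wilson intervals. Named were the 7 listed genes, every gene assigned a peak of the interval, its protein-coding genes without a peak, and family members with a peak; flanking genes were named after their values were seen. The peaks of 1 family member are not reported here. The interval, the members and the lists were chosen with earlier results of these data known. With 1 library per genotype no test was run. The tools were matplotlib 3.10.9, scipy 1.17.1, pandas 2.3.3, numpy 2.4.6 and Python 3.11.15, and overlap and coverage code was tested on simulated data. Alternatives tried were limits on fold (10) and on length (2000 bp), an interval 0.2 Mb longer at each edge, peaks of listed genes only, a reciprocal overlap of 50%, a gap of up to 600 bp counted as shared, assignment by gene body within 3 kb, and joining of peaks up to 1000 bp apart, the last chosen after the data were seen.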

Additional observations from a re-analysis of the deposited data

Results flagged for a closer look

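The change in listed peaks between genotypes went opposite ways in the parental genomes of the interval. The Ezh2m-/p+ list held 49 more maternal peaks than the Ezh2m+/p+ list (52 against 3), and on the paternal genome the number fell by 4 (14 against 18). With peaks over 2000 bp alone the paternal direction turned, with 9 in Ezh2m-/p+ against 8 in Ezh2m+/p+. The difference between the parental genomes was not tested, since each genotype had 1 library, and the interval was chosen by the fold and length of maternal peaks of 1 of these lists.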

How the results depend on the processing

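No paired analysis was possible because each genotype had 1 library and no test was run. Of 55 alternative values, 29 stayed within their limits and 26 moved. All are counts, shares or medians of 1 list and have no sign. With a fold over 10, the Ezh2m+/p+ maternal list kept 0 peaks and 0% covered, so that its overlap and median fold gave no value, and the Ezh2m-/p+ maternal list had 14.3% covered and, with no peak left to meet, 0% overlap. The paternal lists then had 11 peaks (3.57% covered, 9.09% overlap) in Ezh2m+/p+ and 2 peaks (0.367% covered) in Ezh2m-/p+. With a length over 2000 bp, coverage was 17.7% in the Ezh2m-/p+ maternal list, and the paternal lists had 8 peaks (3.87%) and 9 peaks (4.27%). With 0.2 Mb added at each edge, maternal coverage was 0.637% (Ezh2m+/p+) and 14.3% (Ezh2m-/p+), and the paternal lists had 33 peaks (6.95%) and 27 peaks (6.26%). Peaks of listed genes only numbered 30 in the Ezh2m-/p+ maternal list and 0 in both paternal lists. With a reciprocal overlap of 50%, 1.92% of Ezh2m-/p+ maternal, 27.8% of Ezh2m+/p+ paternal and 35.7% of Ezh2m-/p+ paternal peaks were shared. Joining peaks up to 1000 bp apart, chosen after the data were seen, left 47 domains of the 52 peaks. Under each alternative that gave both values, the Ezh2m-/p+ maternal list had more peaks and coverage here than the Ezh2m+/p+ one. The interval was chosen by peaks of the Ezh2m-/p+ maternal list, so the choice favoured this direction and it is no independent evidence. The fold limit of 10 was also set on folds that are not comparable between lists. The lack of replicates and the difference in sequencing depth between the libraries limit every comparison of genotypes.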
